A study of Homo sapiens with 4 samples.

Results

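NRF2 (encoded by NFE2L2) target genes and antioxidant enzymes were followed as a set of 41 genes, chosen by gene symbol from the 61806 genes of the expression table, and all 41 had a row. RNA was sequenced from JJ012, a human chondrosarcoma cell line, and 143B, a human osteosarcoma cell line, both kept detached in suspension. Each line gave 1 untreated control library and 1 library treated with 1 mM melatonin for 72 h, so that each tumour type is represented by 1 line and each condition by 1 library. The comparisons ask how the antioxidant genes of detached bone cancer cells differ after melatonin in each line, and how the lines differ without it. There were no replicates, so no test between conditions was possible, and every difference below is a difference between 2 libraries.

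NRF2 is a transcription factor that KEAP1 marks for degradation in unstressed cells. Oxidants and electrophiles modify KEAP1, and NRF2 then binds the antioxidant response element (ARE) with a small MAF partner and raises genes that make glutathione, reduce thioredoxin, clear quinones and supply NADPH. Peroxiredoxins and glutathione peroxidases remove peroxides with electrons from thioredoxin or glutathione, superoxide dismutases turn superoxide into hydrogen peroxide, and catalase removes it. Not every antioxidant enzyme is an NRF2 target, and superoxide dismutases answer to other factors too.

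Levels are given in FPKM (counts scaled to exonic gene length and the library total), which may be compared between genes. Differences are log2((FPKM + 1)/(FPKM + 1)) for genes with at least 1 FPKM in 1 of the compared libraries, and a gene was said to have risen or fallen where this reached 0.58 in size. Genes with low levels appear less changed than they are, because of the pseudocount of 1. Beside it stands the ratio of CPM (counts scaled to the library total alone) with an exact (Clopper-Pearson) 95% interval, which covers counting error alone and no variation between cultures. A difference can come from RNA per cell or from the share of cells with the RNA, and these cannot be told apart in bulk libraries.

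The libraries held between 15889564 and 19218343 counts. The share of mitochondrially encoded RNA was 6.78% in untreated and 4.35% in treated JJ012, and 1.63% and 2.46% in 143B. The library names in the expression table give the line, and the suffix T was read as melatonin-treated. The labelled cell types were only partly visible in their markers. COL2A1 and ACAN, which define cartilage, reached at most 0.11 FPKM in any library, although SOX9 lay between 6.16 and 15.5 FPKM. The summed level of 10 chondrocyte markers was 18.5 FPKM in the JJ012 control and 7.35 FPKM after melatonin, and 17.4 and 14.0 FPKM in 143B, so the list did not set the lines apart. That of 10 osteoblast markers was higher in the chondrosarcoma line, at 111 and 70.4 FPKM in JJ012 against 8.84 and 8.95 FPKM in 143B. In JJ012, SPP1 gave 79.4 and 64.5 FPKM of it, COL1A1 10.9 and 0.77 FPKM, and COL1A2 12.5 and 0.14 FPKM. IBSP had no count in 143B and SP7 at most 1, and in JJ012 they had at most 4 and 8 counts. Other markers of the list were higher in 143B. DLX5 was at 1.73 and 3.64 FPKM there with no count in JJ012. RUNX2 was at 4.28 and 2.75 FPKM in 143B against 3.02 and 2.59 FPKM in JJ012, and BGLAP at 1.44 and 1.21 FPKM against 0.81 and 0.26 FPKM. Lists of other cell types moved as well. From control to melatonin, 5 epithelial markers summed to 21.6 and 13.6 FPKM in JJ012 and to 46.9 and 32.4 FPKM in 143B, with CDH1 at no more than 1 count in any library. Blood and endothelial markers (6 genes) summed to 12.6 and 4.76 FPKM in JJ012, of which CD3E gave 9.73 and 3.28 FPKM while PTPRC stayed at or below 0.14 FPKM, and to 2.53 and 2.1 FPKM in 143B. The part of these shifts in the differences below was not tested.

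The ARE core, searched as TGACNNNGC on both strands of RefSeq promoter windows (GRCh38.p14, 250 bases before to 50 bases after a gene start), was present in 8 of the 34 members with a window. These were GCLM, GSTO1, GSTP1, KEAP1, ME1, MGST1, PGD and TXNRD1, or 23.5% of the members against 16.1% of 27305 genes. A match describes letters and not binding. In the following 30-base stretches, shown because they hold the core upstream of members from several roles, capitals mark the core, which reads GCNNNGTCA where it lies on the opposite strand.
GCLM, chr1:93909445-93909474, minus strand: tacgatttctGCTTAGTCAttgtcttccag
TXNRD1, chr12:104215670-104215699, plus strand: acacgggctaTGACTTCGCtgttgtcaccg
GSTP1, chr11:67583736-67583765, plus strand: gccggcgccgTGACTCAGCactggggcgga
ME1, chr6:83431169-83431198, minus strand: tctcctgccaTGACTCAGCgcttctcgcag
KEAP1, chr19:10502783-10502812, minus strand: gcccggctctGCTTAGTCAtggtgacctgc
PGD, chr1:10398853-10398882, plus strand: cctcgccgggGCAATGTCAtctaggtgctc
In these stretches the core began 34 bases before the start of GCLM, 99 bases before TXNRD1 and 66 bases before GSTP1. It began 137 bases before ME1, 31 bases before KEAP1 and 201 bases before PGD. The printed cores of GCLM and KEAP1 shared the same 9 letters, as did those of GSTP1 and ME1. The windows of TXNRD1, KEAP1 and ME1 held further matches that are not printed. Sequence outside the windows was not searched, so a member without a match may have an element elsewhere.

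In JJ012, melatonin was followed by a split within the antioxidant genes. Of 38 members tested, 6 rose (GCLM, GSR, TXNRD1, SRXN1, OSGIN1 and SOD2) and 12 fell (NQO1, TXNIP, PRDX1, PRDX2, PRDX4, PRDX5, GPX1, GPX8, GSTP1, SOD1, SOD3 and TALDO1). The background was 19.6% of all 15794 genes tested for a rise and 18.6% for a fall, against 15.8% and 31.6% of the members. The median member difference was -0.32 on the log2 scale, against 0.01 for all genes tested, and GPX3, GPX7 and MGST1 lay below 1 FPKM in both libraries. On the TPM scale (levels rescaled to a common sum), which moves the median of all genes by 0.26, the split was 9 risers and 9 fallers, against 34.6% and 15.7% of all genes.

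In 143B, few members moved. Of 39 members tested, PRDX3, GPX7 and PGD rose and HMOX1 fell, and the median was 0.05 against 0.03 for all genes tested. The background was 6.09% of 14135 genes for a rise and 6.65% for a fall, against 7.69% and 2.56% of the members. Nearly all members are protein-coding, and among 10878 protein-coding genes the background was lower, at 3.48% for a rise and 2.60% for a fall. The members' share of falls was thus below that of all genes but close to that of protein-coding genes. Their share of rises was above both on this scale, but it rests on 3 genes. After the running median of all genes of similar length was taken away, 2 members rose, against 5.74% of all genes. No excess of rises is read from these counts. GPX3 and SOD3 lay below 1 FPKM in both 143B libraries. On the TPM scale 2 members rose and 3 fell, against 8.58% and 10.8% of all genes, with PRDX2 and BLVRB past it beside HMOX1 and PGD short of it (0.577).

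**Figure D1:**
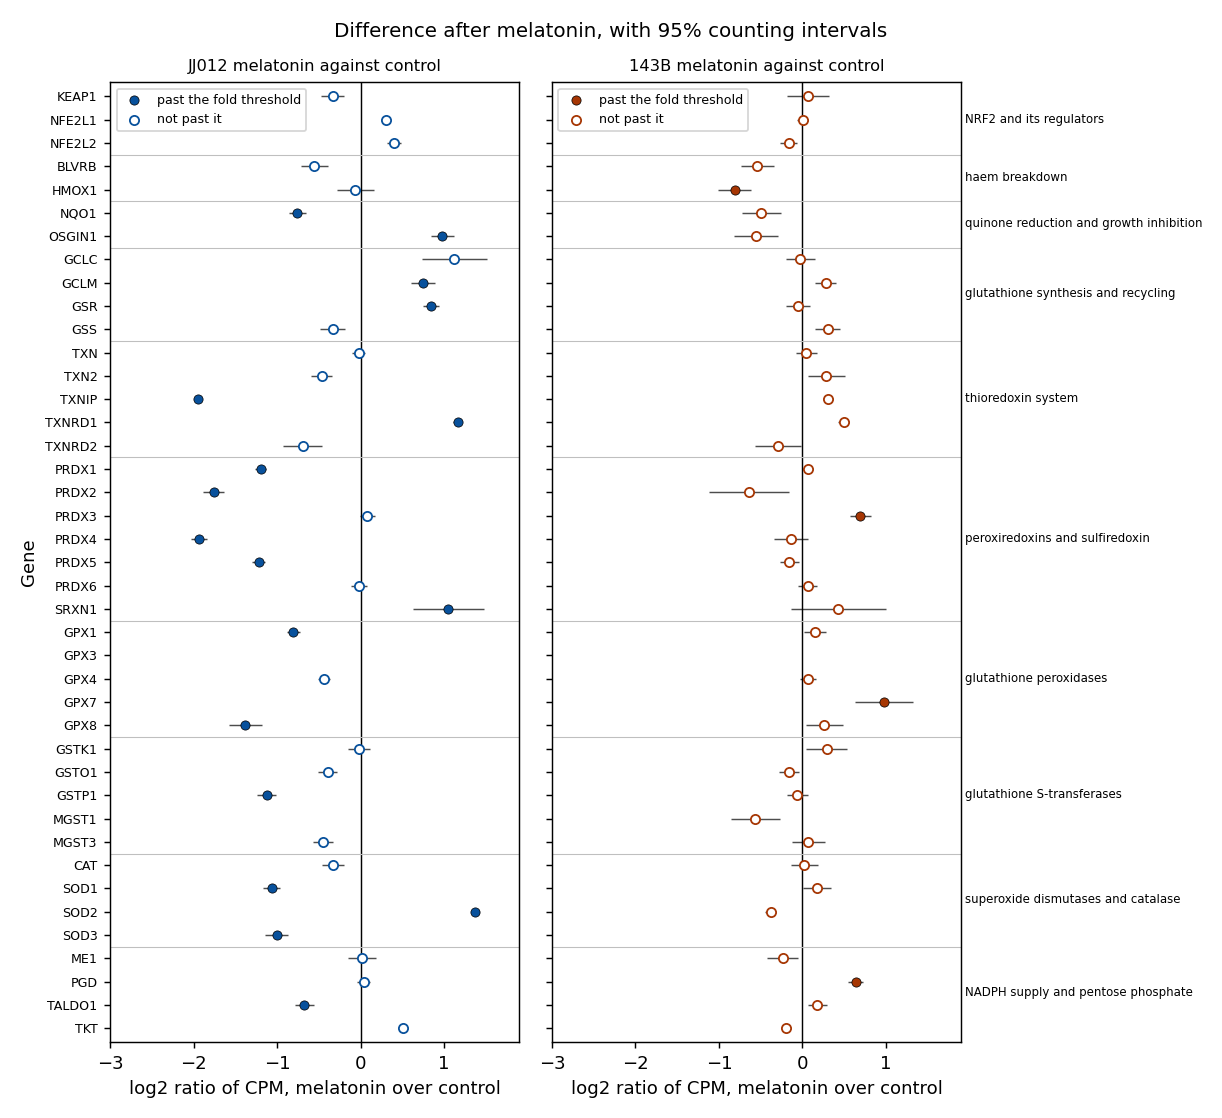
Difference after melatonin for each member, as the log2 ratio of CPM, in JJ012 (left) and 143B (right), with members in rows grouped by role, bars for 95% counting intervals and filled points for members past the fold threshold. The JJ012 panel shows 6 filled points to the right of 0 and 12 to the left, and the 143B panel shows 3 and 1.

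NRF2 and its regulators stayed within the fold threshold in both lines, except that NFE2L2 passed it in JJ012 on the TPM scale (0.65). NFE2L2 was at 6.99 FPKM in the JJ012 control and 9.22 FPKM after melatonin, and at 7.02 and 6.27 FPKM in 143B. KEAP1, the adaptor that targets NRF2 for degradation, was at 16.8 and 13.3 FPKM in JJ012 and at 4.42 and 4.63 FPKM in 143B. NFE2L1, a related factor that also binds the ARE, was at 102 and 126 FPKM in JJ012 and at 36.7 and 36.8 FPKM in 143B. The differences after melatonin in JJ012 were 0.36 for NFE2L2, 0.30 for NFE2L1 and -0.32 for KEAP1. Messenger level does not report NRF2 protein, which KEAP1 controls after translation. In GENCODE 29 another gene model covers 17.6% of the exonic bases of NFE2L2 on the same strand, so that some of its counts are uncertain. The other model had between 117 and 417 counts. The length deposited for NFE2L2, 14975 bases, is longer than its GENCODE 29 exons, so this share does not carry over to it. That length sets the FPKM of NFE2L2 low for its counts but leaves its ratio between libraries as it is.

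Glutathione synthesis and recycling held 2 of the JJ012 risers. GCLM, the modifier subunit of glutamate-cysteine ligase, was at 6.38 FPKM in the JJ012 control and 10.7 FPKM after melatonin, a difference of 0.67 or 1.68-fold in CPM (95% counting interval 1.52 to 1.86). GSR, which reduces oxidised glutathione with NADPH, was at 20.5 and 36.9 FPKM, a difference of 0.82 or 1.80-fold (1.68 to 1.93). In 143B neither gene passed the threshold, with GCLM at 10.6 and 12.8 FPKM and GSR at 13.2 and 12.8 FPKM. GCLC, the catalytic subunit of the ligase, was low in JJ012, at 0.53 and 1.14 FPKM, and its difference of 0.48 did not pass, although it was 0.98 with a pseudocount of 0.1 FPKM and 1.03 on the TPM scale. In 143B GCLC was at 3.96 and 3.89 FPKM. GSS, which completes glutathione, did not pass in either line (-0.29 and 0.26).

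The thioredoxin system moved in opposite directions within JJ012. TXNRD1, the cytosolic reductase of thioredoxin and a selenoprotein, was at 35.5 FPKM in the JJ012 control and 79.5 FPKM after melatonin, a difference of 1.14 or 2.24-fold (2.16 to 2.32). TXNIP, which binds and inhibits thioredoxin, was at 456 and 118 FPKM, a difference of -1.94 or 3.85-fold lower (3.75 to 3.95). The gene lies at chr1:145992435-145996579 (hg38), and had the largest fall among the members and the highest FPKM of them in the JJ012 control. In 143B TXNRD1 was at 26.6 and 37.5 FPKM and TXNIP at 160.0 and 198 FPKM, differences of 0.48 and 0.31 that did not pass. Thioredoxin itself (TXN) was at 144 and 142 FPKM in JJ012 and at 63.4 and 65.5 FPKM in 143B. The mitochondrial forms TXN2 (-0.45 in JJ012, 0.27 in 143B) and TXNRD2 (-0.48 and -0.18) did not pass in either line.

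Peroxiredoxins made up 4 of the 12 JJ012 fallers. PRDX1 was at 229 FPKM in the JJ012 control and 99.8 FPKM after melatonin, PRDX2 at 69.8 and 20.6 FPKM, PRDX4 at 129 and 33.8 FPKM, and PRDX5 at 288 and 124 FPKM. PRDX1 and PRDX2 are cytosolic, PRDX4 works in the endoplasmic reticulum and PRDX5 in mitochondria, peroxisomes and cytosol. Their log2 differences were -1.19, -1.71, -1.90 and -1.22. The largest of these in CPM was that of PRDX4, 3.82-fold lower (3.57 to 4.10). PRDX3 of mitochondria (0.08) and PRDX6 (-0.02) did not pass, so the 6 family members differed from one another. Summed over PRDX1 to PRDX6, the level was 790.5 FPKM in the JJ012 control and 353 FPKM after melatonin, against 346 and 353 FPKM in 143B.

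SRXN1, sulfiredoxin, restores over-oxidised peroxiredoxins, and rose in JJ012 while PRDX1, PRDX2 and PRDX4 fell. It was at 1.54 and 3.19 FPKM, a difference of 0.72 or 2.06-fold, with a wide interval of 1.54 to 2.78 from 75 and 130 counts. Another gene model covers 85.0% of its exonic bases on the same strand, with at most 1 count in any library. How shared reads were counted was not examined, so the level of SRXN1 is uncertain. In 143B it was at 1.15 and 1.54 FPKM. PRDX3 was the peroxiredoxin that rose in 143B, from 15.7 to 25.4 FPKM, a difference of 0.66 or 1.62-fold (1.49 to 1.76). PRDX1 (0.06), PRDX2 (-0.44), PRDX4 (-0.12), PRDX5 (-0.15) and PRDX6 (0.06) did not pass there. MMACHC overlaps 24.9% of the exonic bases of PRDX1 on the other strand, with at most 196 counts in any library.

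Of the glutathione peroxidases, 2 fell in JJ012 and 1 rose in 143B. GPX1, the abundant cytosolic form, was at 169 FPKM in the JJ012 control and 96.8 FPKM after melatonin, a difference of -0.80, and at 47.2 and 52.2 FPKM in 143B. GPX8, a form of the endoplasmic reticulum membrane, was at 11.3 and 4.32 FPKM in JJ012, a difference of -1.20, and at 4.54 and 5.46 FPKM in 143B. GPX4, which removes lipid peroxides, did not pass in either line (-0.43 in JJ012 and 0.07 in 143B). GPX7, a peroxidase of the endoplasmic reticulum lumen, had no count in either JJ012 library and was at 3.87 and 7.61 FPKM in 143B, a difference of 0.82 or 1.97-fold (1.55 to 2.51). GPX3, a secreted form, lay between 0.07 and 0.43 FPKM. Together the 5 genes summed to 290.3 and 182 FPKM in JJ012, and to 108 and 120.5 FPKM in 143B.

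Among the glutathione S-transferases only GSTP1 passed, in JJ012. It conjugates glutathione to electrophiles, and was at 65.1 FPKM in the JJ012 control and 29.9 FPKM after melatonin, a difference of -1.10 or 2.18-fold lower (2.01 to 2.36). In 143B it was at 36.9 and 35.3 FPKM. GSTK1, GSTO1 and MGST3 lay between -0.40 and -0.02 in JJ012, where MGST1 was below 1 FPKM. In 143B these 4 lay between -0.35 and 0.23.

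The superoxide dismutases moved in opposite directions in JJ012. SOD1, the copper and zinc enzyme of the cytosol, was at 71.1 FPKM in the JJ012 control and 34.0 FPKM after melatonin, a difference of -1.04. SOD3, the extracellular form, was at 39.8 and 19.8 FPKM, a difference of -0.97. SOD2, the manganese enzyme of mitochondria, was at 34.4 and 88.6 FPKM, a difference of 1.34 or 2.58-fold (2.52 to 2.64), the largest rise among the members. In FPKM the sum of the family was 145 in the JJ012 control and 142 after melatonin, while SOD2 went from 23.6% to 62.2% of it. This sum and these shares rest on the long length deposited for SOD2. In CPM, which leaves length out, SOD2 was at 623 and 1607, SOD1 at 140 and 67.2, and SOD3 at 80.3 and 40.0. On that scale the rise of SOD2 exceeded the falls of the others, so the family did not stay level.

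In 143B the same family stayed within the threshold. SOD1 was at 16.9 and 19.2 FPKM and SOD2 at 14.2 and 10.9 FPKM, and SOD3 had no count in either library. SOD2 took 45.6% and 36.2% of the family sum. The length deposited for SOD2 was 18144 bases, the longest of the members. It sets the FPKM of SOD2 and its share of the family sum low for its counts, but leaves its ratio between libraries as it is. Catalase (CAT), which removes hydrogen peroxide in peroxisomes, was at 17.2 and 13.6 FPKM in JJ012 and at 10.3 and 10.5 FPKM in 143B.

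**Figure D2:**
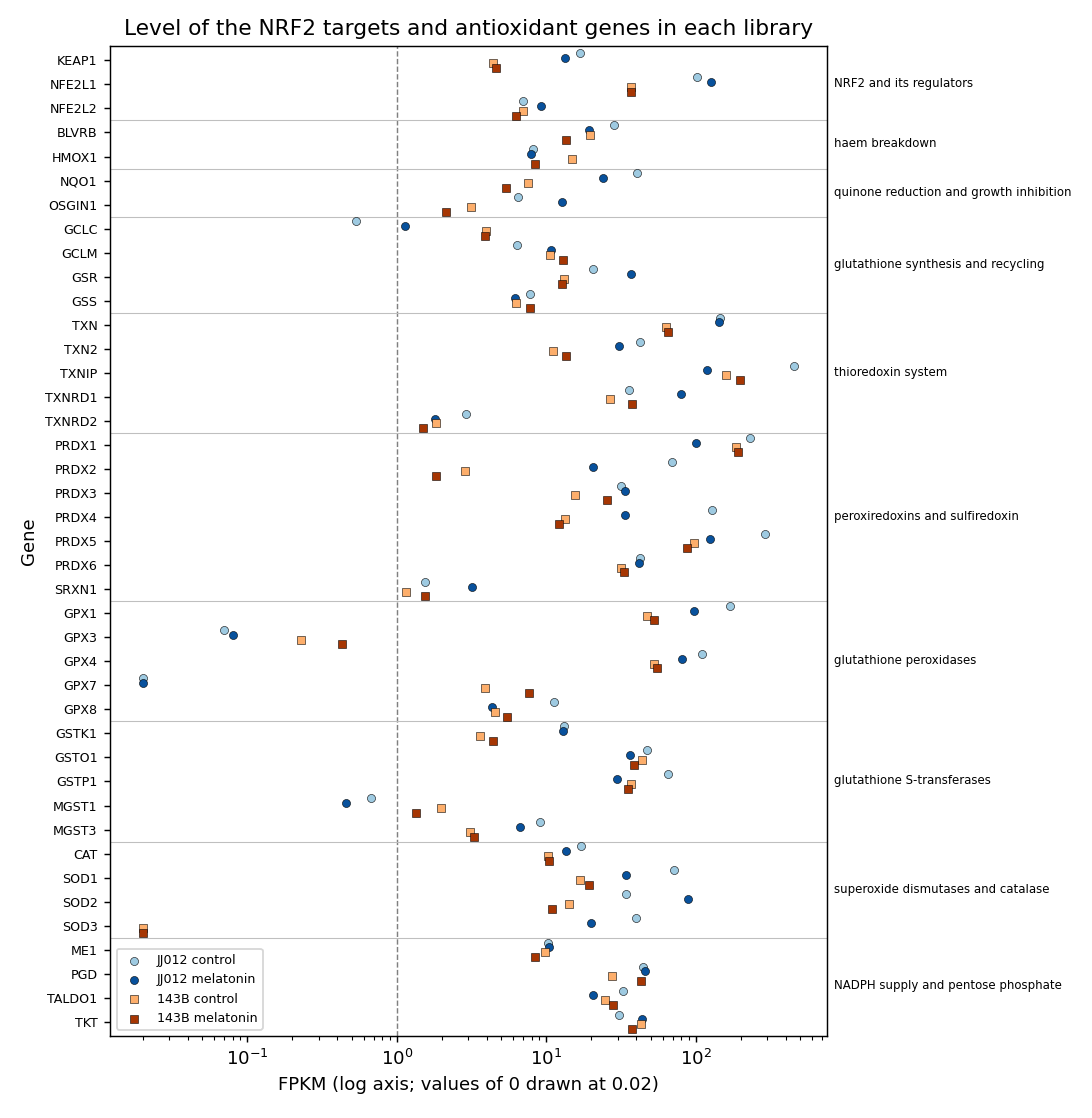
Level of each member in the 4 libraries in FPKM on a log axis, with members in rows grouped by role, circles for JJ012, squares for 143B, pale for control and dark for melatonin. TXNIP reaches 456 FPKM in the JJ012 control, and the genes with no count (GPX7 in JJ012, SOD3 in 143B) are drawn at 0.02.

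Quinone reduction and growth inhibition gave 1 faller and 1 riser in JJ012. NQO1, the quinone reductase often read as the standard NRF2 target, was at 40.5 FPKM in the JJ012 control and 23.9 FPKM after melatonin, a difference of -0.74. OSGIN1, an oxidative stress-induced growth inhibitor, was at 6.51 and 12.8 FPKM, a difference of 0.88 or 1.97-fold (1.79 to 2.17). In 143B NQO1 was at 7.58 and 5.39 FPKM and OSGIN1 at 3.13 and 2.13 FPKM, differences of -0.43 and -0.40 that did not pass. NQO1 thus fell in JJ012 while GCLM, TXNRD1 and SRXN1, which are also known NRF2 targets, rose. On the TPM scale the fall of NQO1 no longer passed (-0.48), nor did those of GPX1 (-0.53) and TALDO1 (-0.40). In GENCODE 29 another gene model overlaps 13.9% of the exonic bases of OSGIN1 on the same strand.

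Haem breakdown held the only faller of 143B. HMOX1, haem oxygenase 1, which releases iron, carbon monoxide and biliverdin, was at 14.8 FPKM in the 143B control and 8.44 FPKM after melatonin, a difference of -0.74 or 1.75-fold lower (1.53 to 2.01). In JJ012 it was at 8.21 and 7.87 FPKM. BLVRB, a biliverdin reductase, was at 28.5 and 19.4 FPKM in JJ012 and at 19.7 and 13.5 FPKM in 143B. Its differences of -0.53 and -0.51 were similar in both lines and just short of the threshold in each.

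The NADPH-supplying members differed between the lines. TALDO1, transaldolase of the pentose phosphate pathway, was at 32.7 FPKM in the JJ012 control and 20.4 FPKM after melatonin, a difference of -0.65. PGD, the second NADPH-producing dehydrogenase of the pathway, was at 27.5 and 42.8 FPKM in 143B, a difference of 0.62 or 1.56-fold (1.46 to 1.66), and at 44.4 and 45.6 FPKM in JJ012. TKT, transketolase, did not pass in either line (0.50 in JJ012, or 0.78 on the TPM scale, and -0.19 in 143B). ME1, the cytosolic malic enzyme, lay between 8.38 and 10.4 FPKM in the 4 libraries. TALDO1 was at 24.5 and 27.7 FPKM in 143B.

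The 2 lines shared no called member, with 18 calls in JJ012 and 4 in 143B, of which GPX7 had no count in JJ012. Of all genes tested, 38.2% were called in JJ012 and 12.7% in 143B, in either direction. The overlap and the agreement in sign over all genes were not computed, so the values below are not read as particular to the members. Of the 37 members tested in both, 6 had differences above 0 in each line, 9 below 0 in each and 22 opposite signs, and Spearman's rho across genes was 0.04, a description only since genes are not replicates. The members also differed in size, with a median absolute difference of 0.50 in JJ012 and 0.18 in 143B. These comparisons use separate libraries.

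The JJ012 differences went with gene length. The log2 difference had a Spearman's rho of 0.58 with exonic length over the 38 members and 0.40 over 11534 protein-coding genes, and the points share both libraries. The median length was 5492 bases for the 6 risers and 1996.5 bases for the 12 fallers. Among 11 members shorter than 2000 bases 6 fell and 0 rose, and among 11 longer than 5000 bases 4 rose and 0 fell. Protein-coding genes under 2000 bases had a median difference of -0.50 and those over 5000 bases one of 0.22. In 143B the rho was -0.06 over 39 members and -0.13 over protein-coding genes.

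Taking away the running median of all genes of similar length left all 6 risers past the threshold in JJ012. It left 9 of the 12 fallers, with NQO1 (-0.55), GPX1 (-0.46) and TALDO1 (-0.46) no longer past, while MGST3 and TXNRD2 passed. The 3 largest falls were still those of TXNIP (-1.83), PRDX4 (-1.58) and PRDX2 (-1.34). The background was then 18.1% of all genes for a rise and 16.4% for a fall, and the median member was at -0.11. What part length has in these differences was not tested.

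**Figure D3:**
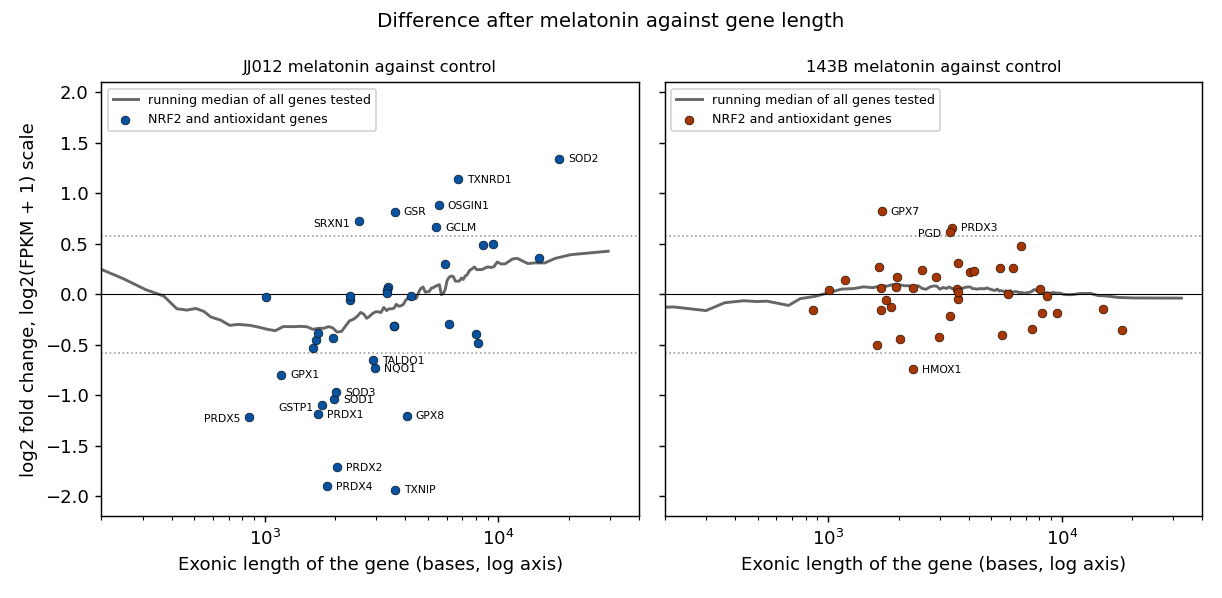
Log2 difference after melatonin against exonic length in bases on a log axis, in JJ012 (left) and 143B (right), with points for members, a line for the running median of all genes tested and dotted lines at the threshold of 0.58. In JJ012 the line falls from 0.15 at 248 bases to -0.37 at 2039 bases and climbs with length from there. The JJ012 fallers have a median length of 1996.5 bases and the risers one of 5492 bases, and in 143B the line is nearly flat.

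Without melatonin, the JJ012 control held more RNA of most antioxidant genes than the 143B control. Of 40 members tested, 23 were lower in 143B and 5 were higher (HMOX1, GCLC, GCLM, GPX7 and MGST1), with a median difference of -0.75 against -0.29 for all genes. The background was 41.3% of 16929 genes lower and 27.4% higher, against 57.5% and 12.5% of the members. Each control also enters its own line's melatonin comparison. On the TPM scale, which moves the median of all genes by 0.30, 19 members were lower and 6 higher, against 36.2% and 37.2% of all genes.

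The widest gaps concerned genes at or near absence in 1 line. SOD3 had 1543 counts in the JJ012 control and 0 in the 143B control, so it was at least 425-fold higher in JJ012 against the floor of 3 counts. GPX7 had 104 counts in the 143B control and 0 in the JJ012 control, at least 41.9-fold higher in 143B. PRDX2 was at 69.8 FPKM in the JJ012 control and 2.85 FPKM in the 143B control, 24.5-fold lower in 143B (19.9 to 30.5). PRDX4 was 9.71-fold lower (8.76 to 10.8) and NQO1 5.34-fold lower (4.78 to 5.99). Among the genes higher in 143B, GCLC was at 0.53 and 3.96 FPKM, 7.54-fold higher, and so both subunits of the ligase were higher in 143B. KEAP1 was 3.81-fold lower in 143B (3.32 to 4.38), while NFE2L2 differed by 0.01.

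**Figure D4:**
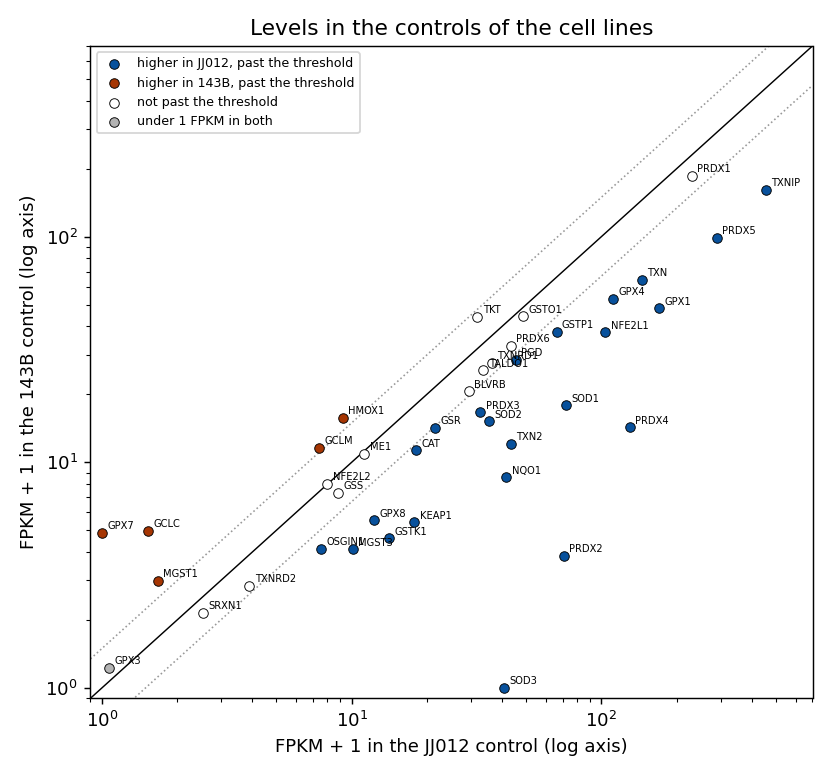
FPKM + 1 of each member in the JJ012 control (horizontal) and the 143B control (vertical), both on log axes, with a solid line of equal level and dotted lines at the fold threshold. Most points lie below the solid line, SOD3 farthest at a log2 difference of -5.35, and GPX7 lies farthest above it at 2.28.

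The rest of the pathway was read in 6 lists of 136 genes that are not members, and their shares stand against the same background, in JJ012 19.6% for a rise and 18.6% for a fall. Partners and controllers of NRF2 had 7 risers and 1 faller among 13 tested in JJ012 (53.8% and 7.69%), with a median of 0.67, and none past the threshold among 13 in 143B. The named ones were MAFF, a small MAF partner (6.38 to 13.0 FPKM), BACH1, a repressor that competes for the ARE (20.2 to 38.6 FPKM), and RBX1, of the KEAP1 ubiquitin ligase, which fell (21.5 to 13.3 FPKM). Less the length trend, 5 of the 13 rose and 0 fell, RBX1 being at -0.48.

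Further NRF2 targets went both ways in JJ012, with 2 risers and 8 fallers of 24 (8.33% and 33.3%). SLC7A11, the cystine carrier that feeds glutathione synthesis and that ATF4 also controls, was at 1.13 FPKM in the JJ012 control and 10.4 FPKM after melatonin (2.41). AKR1B10, an aldo-keto reductase and NRF2 target, was at 5.43 and 0.87 FPKM (-1.78), and CBR3, a carbonyl reductase, at 5.58 and 1.99 FPKM (-1.14). In 143B 2 of 19 fell (10.5%, against 6.65% of all genes), AKR1B1 from 72.9 to 26.7 FPKM and ABCB6 from 6.38 to 3.88 FPKM, and none rose.

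Other glutathione and thiol enzymes had 2 risers and 7 fallers of 37 in JJ012 (5.41% and 18.9%). Their share of fallers was near the background before the length trend was taken away. Less the length trend, 3 of the 37 rose and 9 fell, against 18.1% and 16.4% of all genes. In 143B 3 of 31 rose (9.68%, against 6.09% of all genes) and 0 fell. TXNRD3 was at 3.15 and 7.51 FPKM in JJ012 and GGCT, which breaks down gamma-glutamyl amino acids, at 14.1 and 25.4 FPKM, while TXNDC17, a thioredoxin-like protein, fell from 31.7 to 10.7 FPKM. The 143B risers were GSTZ1, SESN3 and CHAC1, all below 5 FPKM and named after their values were seen. Other NADPH producers had 5 risers and 1 faller of 17 in JJ012 (29.4% and 5.88%). RPIA rose from 4.48 to 8.20 FPKM and NADK from 7.81 to 12.6 FPKM, while IDH2, the mitochondrial isocitrate dehydrogenase, fell from 19.2 to 11.7 FPKM. Less the length trend 2 rose and 0 fell, with NADK at 0.54 and IDH2 at -0.45.

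Selenocysteine genes were read because TXNRD1, GPX1 and GPX4 contain that residue. In JJ012 2 rose and 6 fell of 17 (11.8% and 35.3%), or 1 and 4 less the length trend, SELENOI being highest (2.46 to 9.57 FPKM) and SELENOM lowest (a difference of -1.14), and in 143B 2 of 17 rose (11.8%), EEFSEC (4.10 to 7.25 FPKM) and SECISBP2 (6.31 to 10.4 FPKM), which place the residue. Of the oxidant-producing enzymes 5 were tested in JJ012, where 1 rose and 1 fell (20% and 20%), near the background. The faller was ERO1A, an oxidase of the endoplasmic reticulum, from 206 to 113 FPKM. Less the length trend 0 rose and 2 fell. None of 4 passed in 143B.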

How the data were processed

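Poly(A)-selected RNA was sequenced as paired ends. For every gene and library the authors deposited raw counts, as whole numbers, and FPKM, which are those counts scaled to exonic length and library total. The exonic length in bases was deposited by the authors too. The submitters' processing notes name cutadapt 1.9.1, HISAT2 2.2.1, HTSeq 0.6.1, DESeq2 and hg38, while the strand setting and annotation release are not given in the sources used here. Columns carried the name of the line, and the suffix T was read as melatonin-treated. The authors' annotation columns were not used.

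The 41 members, the 6 other lists and the marker lists were chosen with earlier results of these data known. Every regulator, every member called after melatonin and the 5 largest control differences were given in full, and from each other list at most the 2 highest and 2 lowest called genes with at least 5 FPKM. Some results of the other lists are not reported here. The threshold of 0.58 follows the study, and its FDR could not be computed from 1 library per group. Counts were also present, so CPM with exact 95% intervals was added. The floor was 3 counts, or 0.156 to 0.189 CPM. Alternatives were a pseudocount of 0.1, no filter, a filter of 5 FPKM, CPM, TPM, centring on the median gene, a threshold of 1, protein-coding genes alone and subtraction of a running median over length (501 genes). The procedures were tested on simulated data. Gene types and overlaps came from GENCODE 29, and promoter sequences from RefSeq, which held 34 members. Figures were drawn with matplotlib 3.10.9, and values computed with pandas 2.3.3, scipy 1.17.1 and numpy 2.4.6 under Python 3.11.15.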

Additional observations from a re-analysis of the deposited data

Results flagged for a closer look

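In 8 members, all past the fold threshold in JJ012, the differences after melatonin pointed in opposite directions in the lines, with a counting interval that left out 0 in each. With 1 library per group the difference between the lines was not tested. The 143B direction of PRDX1 depended on the processing, at 0.06, or -0.014 less the length trend. The JJ012 difference minus the 143B difference, on the log2(FPKM + 1) scale, was -2.24 for TXNIP, -1.43 for GPX8, -1.25 for PRDX1, -1.21 for SOD1, -0.94 for GPX1 and -0.82 for TALDO1, all of which fell in JJ012. It was 1.69 for SOD2 and 1.28 for OSGIN1, which rose in JJ012. The same held for 4 members that passed the threshold in neither line, NFE2L2 (0.36 in JJ012 and -0.14 in 143B), TKT (0.50 and -0.19), GSS (-0.29 and 0.26) and TXN2 (-0.45 and 0.27).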

How the results depend on the processing

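No paired analysis was possible because each group had 1 library, and for the same reason no library could be left out. Over 6 ways of scaling, 15 of the 18 JJ012 calls and 3 of the 4 143B calls stayed past the threshold, and all kept their sign. With a threshold of 1, JJ012 had 2 members higher and 8 lower (10 in all) and 143B had 0 higher, 0 lower and 0 in all, while 2 members were higher and 17 lower in the 143B control than in the JJ012 control (18.5% and 28.7% of all genes). Of all genes, 7.86% rose and 6.88% fell in JJ012 at that threshold, and 1.71% and 2.74% in 143B. In 143B the 1 faller became 2 with a pseudocount of 0.1 FPKM (background 10.1%) and 3 with TPM. Against the JJ012 control, 2 members were higher and 23 lower in the 143B control with a filter of 5 FPKM (28.9% and 40.5% of all genes), and 7 were higher and 15 lower after the length trend was taken away (32.7% and 29.8%). The 143B member median, 0.05, turned to -0.0099 with TPM and to -0.029 less the length trend. Causes were not tested, save that TPM moves the median gene by construction. Low counts widen the intervals of GCLC, SRXN1 and GPX3 in JJ012 and of PRDX2 and GPX7 in 143B, and intervals and floors hold no culture variation.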
